A study of Mus musculus with 12 samples.

Results

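The genes described here are 34 genes of mitosis, which code for the cyclins, kinases, spindle motors, kinetochore proteins and cytokinesis factors that carry a cell through division. They were chosen by name, and each was read from its named probes on 1-colour bead microarrays (Illumina Mouse WG-6 v2.0). A gene counted as measured when a probe of it was detected, with a detection p-value below 0.05, on at least 3 of the 12 arrays. This held for 25 of the 34 genes, of 10365 genes measured in all. A further 7 genes (Ccnb2, Bub1, Cenpe, Nuf2, Kif20a, Hmmr and Racgap1) had a named probe that was detected on 0 or 1 array, and Ccnb1 and Mki67 had no named probe.

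The cells were immortalized tumor-initiating cells (iTICs) of the mouse. The normoxic groups were cells moved into DMEM-based standard medium at 21% oxygen for 1, 2, 3, 4, 5, 6 or 7 days. Day 7 had 3 arrays and the other days had 1 each. They are set against 3 arrays from hypoxic stem cell conditions, which had 3% oxygen and a serum-free medium for mammary stem cells, supplemented with the basement membrane extract Cultrex (2%). All groups share the same cells, and medium, Cultrex and oxygen changed together, so their parts cannot be told apart. The labels give no separate cultures for the replicates, so the spread behind each p-value may be technical, and the number of arrays limits the precision.

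Between 34.3% and 37.7% of all probes were detected per array, and log2 levels correlated across genes at 0.979 to 0.985 among the day 7 arrays and at 0.988 to 0.989 among the hypoxic arrays. Of 10 epithelial markers, 9 were measured, and these were detected on all day 7 and all hypoxic arrays. Their summed linear signal was 36899 to 38414 on day 7 and 51114 to 52857 in hypoxic culture, and 5 of the 9 fell and 0 rose on day 7. Among all genes, 33.7% fell and 25.9% rose in this comparison. Of 10 fibroblast markers, 6 were measured, and their sum was 2063 to 2314 on day 7 and 409 to 514 in hypoxic culture. Of these, 5 rose on day 7, Dcn most (3.76), and Pdgfra fell (−0.44), while Thy1 and Postn were detected on 0 arrays. Of 11 macrophage markers, 3 were measured, with a sum of 1631 to 2178 on day 7 and 512 to 650 in hypoxic culture. Most of this sum is Cd14, which differed by 1.87 and was the only 1 of the 3 to rise. Mpeg1 and Lyz1 (−0.34) did not pass, and Adgre1, C1qa and C1qb were detected on 0 arrays. The part of these shifts in the results below was not tested. In such bulk samples, fewer dividing cells and less RNA per cell cannot be told apart. The column names of the 2 deposited tables conflict, and sample names here follow the table of non-normalized signals. Detection p-values that both tables share part the arrays into set a (hypoxic replicate 3, days 4 to 6, day 7 replicates 2 and 3) and set b (hypoxic replicates 1 and 2, days 1 to 3, day 7 replicate 1). That these sets are batches is stated by no label, and calls lost within them are named beside the results.

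Entry into mitosis is driven by the kinase Cdk1 bound to A- and B-type cyclins, which the phosphatase Cdc25c switches on. Aurora kinases, Plk1 and the spindle checkpoint kinases then build the spindle and hold chromosomes until all are attached, after which the anaphase-promoting complex marks cyclins and securin for destruction and the cell divides. Transcripts of these genes are scarce in resting cells and peak in G2 and M phase, and the group is widely used as a readout of proliferation. Their promoters are known for a CHR element (cell cycle genes homology region), bound by the DREAM and MuvB complexes, and for CCAAT boxes, bound by NF-Y.

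The first comparison set cells after 7 days of normoxic culture against cells in hypoxic stem cell conditions. Of the 25 measured mitotic genes, 24 rose on day 7, 0 fell and Cenpf did not pass (adjusted p below 0.05 in a limma fit over all genes), and 0 were lower at an unadjusted p below 0.05 either. Their median difference was 1.95 on the log2 scale, against a median of −0.11 over all genes. The strongest rises were in Birc5 (11.9-fold), Cdca3 (10.3-fold), Aurka (7.44-fold) and Cdk1 (7.08-fold), and the smallest among genes detected in hypoxic culture was in Anln (1.75-fold). Among all genes, 59.7% passed in this comparison, 25.9% higher and 33.7% lower on day 7. All 3 day 7 arrays lay above all 3 hypoxic arrays for 24 of the 25 genes, as for 28.6% of all genes. All 9 normoxic arrays lay above the hypoxic arrays for the same number, as for 17.8% of all genes, and Cenpf was the exception in both counts.

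Passing the detection filter is not independent of the direction. Ccna2, Ttk, Cenpf and Ect2 were detected on 0 of 3 hypoxic arrays and so were measured through their normoxic levels. All 4 lie below the median member on day 7, so placing them at their bounds leaves that median as it is. The other genes include 20 that were detected on all hypoxic arrays, and each of these 20 rose. Set a holds 1 hypoxic array and set b holds 1 day 7 array, and each fit within a set has 1 residual degree of freedom and takes a single array to vary like the repeated group, so calls within sets support little. The median difference on day 7 was 1.98 within set a, where 20 of the 25 genes passed, and 1.89 within set b, where 25 passed. Kif11 (1.38), Anln (0.77), Ect2 and Ccna2 did not pass within set a, with limma adjusted p-values of 0.0616 to 0.226, and Cenpf differed by −0.010. The 7 genes below the filter differed by −0.12 to 0.39 when tested without it, and none passed (limma adjusted p 0.119 to 0.939).

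**Figure D1:**
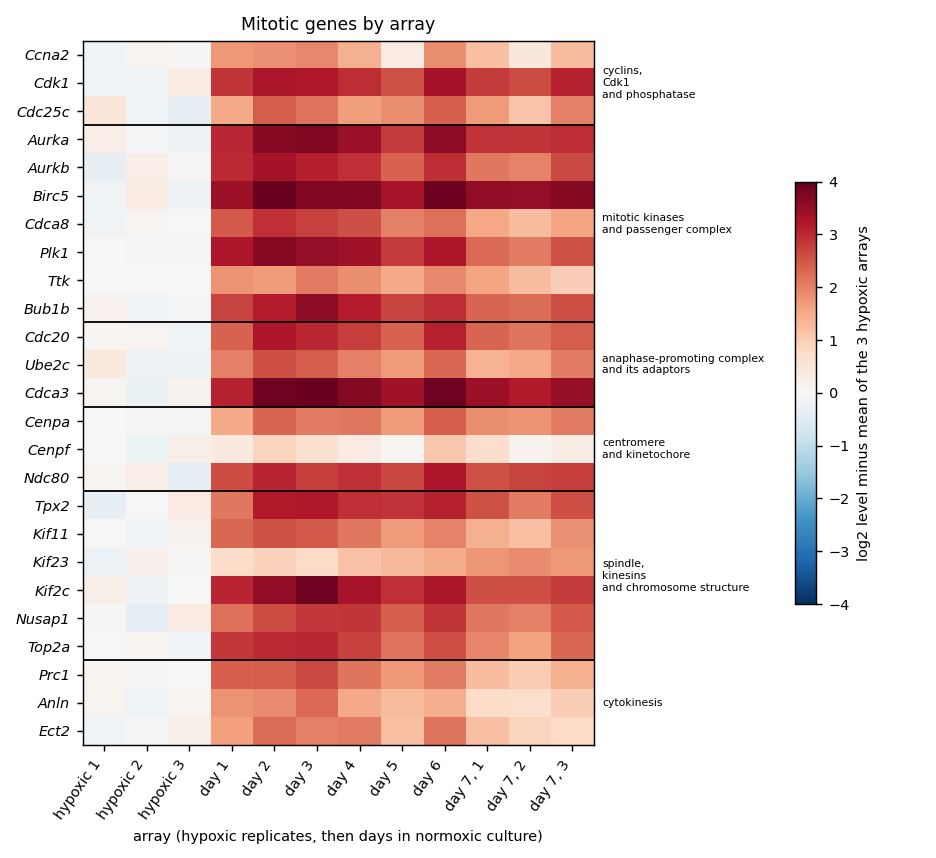
Log2 level of the 25 measured mitotic genes on each of the 12 arrays, minus the mean of the 3 hypoxic arrays (colour, red for higher). Rows are genes by role and columns run from the hypoxic replicates through days 1 to 7. All normoxic values lie above the hypoxic mean, and the palest are those of Cenpf.

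Cdk1, the kinase whose activity defines mitosis, and its activator Cdc25c rose together with the cyclin Ccna2. Cdk1 stood at 8.76, 8.79 and 9.27 on the hypoxic arrays, at 11.82, 12.19, 12.13, 11.89, 11.48 and 12.26 on days 1 to 6, and at 11.74, 11.54 and 12.03 on the day 7 arrays. Every normoxic array was higher than every hypoxic one. The group means of Cdk1 were 11.77 ± 0.24 on day 7 and 8.94 ± 0.29 in hypoxic culture (SD, n = 3 each), a difference of 2.82 (SE 0.19, limma adjusted p = 3.73e-05). Cdc25c stood at 6.12, 5.52 and 5.23 on the hypoxic arrays, at 7.13, 8.05, 7.80, 7.29, 7.47 and 8.01 on days 1 to 6, and at 7.34, 6.76 and 7.63 on the day 7 arrays. Day 7 replicate 2 was the lowest normoxic array of this gene, and it was still above all hypoxic arrays. Cdc25c differed by 1.62 (SE 0.29, limma adjusted p = 0.00243) on day 7, and was detected on 2 of 3 hypoxic arrays. Ccna2, the cyclin that acts in S phase and early mitosis, was not detected in hypoxic culture, and was at least 1.45-fold higher on day 7 and at least 2.60-fold higher on days 1 to 3. Each such bound sets the normoxic mean against the lowest detected signal of the hypoxic arrays or the gene's own signal, whichever was higher.

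The kinases and the chromosomal passenger complex, which corrects faulty attachments of chromosomes to the spindle, rose in 7 of 7 measured genes on day 7, by 1.45 to 3.57 in the 6 that were detected in hypoxic culture. Birc5, the survivin subunit of that complex, stood at 8.47, 8.96 and 8.42 on the hypoxic arrays, at 12.05, 12.58, 12.33, 12.33, 11.92 and 12.55 on days 1 to 6, and at 12.15, 12.13 and 12.27 on the day 7 arrays. The lowest normoxic array was far above the highest hypoxic one. Its means were 12.18 ± 0.08 on day 7 and 8.62 ± 0.30 in hypoxic culture (SD, n = 3 each), a difference of 3.57 (SE 0.17, limma adjusted p = 1.49e-05), and its other 2 probes gave 4.24 and 4.32. Cdca8, the borealin subunit, stood at 8.76, 8.99 and 8.92 on the hypoxic arrays, at 11.33, 11.81, 11.64, 11.47, 10.91 and 11.09 on days 1 to 6, and at 10.45, 10.11 and 10.47 on the day 7 arrays. The day 7 arrays lay between the hypoxic arrays and those of days 1 to 6. Cdca8 differed by 1.45 (SE 0.14, limma adjusted p = 0.000157) on day 7, beside 2.70 on days 1 to 3 and 2.27 on days 4 to 6. Aurora kinase A (Aurka, spindle poles) differed by 2.89 (SE 0.15, limma adjusted p = 1.6e-05), Aurora kinase B (Aurkb, the kinase of the passenger complex) by 2.25 (SE 0.22, limma adjusted p = 0.000158), and Polo-like kinase 1 (Plk1) by 2.29 (SE 0.15, limma adjusted p = 3.54e-05). The checkpoint kinase-like protein Bub1b differed by 2.39 (SE 0.15, limma adjusted p = 2.66e-05). The checkpoint kinase Ttk was not detected on a hypoxic array and was at least 1.48-fold higher on day 7.

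The regulators of protein destruction around mitosis rose in 3 of 3 cases. Cdc20, the adaptor that switches on the anaphase-promoting complex, stood at 8.91, 8.92 and 8.64 on the hypoxic arrays, at 11.18, 12.07, 11.84, 11.59, 11.19 and 11.89 on days 1 to 6, and at 11.15, 10.96 and 11.25 on the day 7 arrays. No normoxic array came near the hypoxic range. Its difference on day 7 was 2.30 (SE 0.14, limma adjusted p = 2.65e-05). Cdca3, known from frog egg extracts to promote destruction of the kinase Wee1, stood at 7.47, 7.10 and 7.52 on the hypoxic arrays, at 10.43, 11.26, 11.32, 11.05, 10.74 and 11.25 on days 1 to 6, and at 10.79, 10.53 and 10.85 on the day 7 arrays. Here too all normoxic arrays stood above all hypoxic ones. The difference on day 7 was 3.36 (SE 0.16, limma adjusted p = 1.49e-05). Ube2c, the ubiquitin-conjugating enzyme of the complex, differed by 1.65 (SE 0.23, limma adjusted p = 0.000683).

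At the centromere, 2 of 3 measured genes rose on day 7. Cenpa, the histone H3 variant that marks centromeres, stood at 11.63, 11.69 and 11.57 on the hypoxic arrays, at 13.14, 13.95, 13.70, 13.74, 13.34 and 14.05 on days 1 to 6, and at 13.48, 13.43 and 13.71 on the day 7 arrays. The groups did not overlap, and replicates differed little. The difference on day 7 was 1.91 (SE 0.13, limma adjusted p = 3.33e-05). Ndc80, the kinetochore subunit that grips microtubules, stood at 6.58, 6.73 and 6.08 on the hypoxic arrays, at 9.08, 9.51, 9.24, 9.37, 9.13 and 9.71 on days 1 to 6, and at 9.01, 9.16 and 9.21 on the day 7 arrays. Hypoxic replicate 3 was the lowest array and day 6 the highest. The difference on day 7 was 2.66 (SE 0.19, limma adjusted p = 3.94e-05). Cenpf, a kinetochore protein of G2 and M phase, stood at 5.00, 4.82 and 5.27 on the hypoxic arrays, at 5.41, 5.91, 5.67, 5.37, 5.10 and 6.12 on days 1 to 6, and at 5.72, 5.18 and 5.34 on the day 7 arrays. The arrays of day 5 and day 7 replicate 2 lay within the range of the hypoxic arrays, where the gene was not detected. Cenpf differed by 0.38 (SE 0.19, limma adjusted p = 0.116) on day 7, by 0.50 (SE 0.19, limma adjusted p = 0.0576) on days 4 to 6 and by 0.63 (SE 0.19, limma adjusted p = 0.0239) on days 1 to 3.

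All 6 measured genes of the spindle, the kinesin motors and chromosome structure rose on day 7. Nusap1, which bundles spindle microtubules, stood at 8.28, 7.88 and 8.56 on the hypoxic arrays, at 10.43, 10.86, 11.06, 11.09, 10.62 and 11.10 on days 1 to 6, and at 10.35, 10.25 and 10.69 on the day 7 arrays. The hypoxic arrays all lay below the normoxic ones. The difference on day 7 was 2.19 (SE 0.21, limma adjusted p = 0.000127). Kif2c, a kinesin that takes microtubules apart, differed by 2.65 (SE 0.15, limma adjusted p = 2.14e-05), and Kif11, the motor that pushes spindle poles apart, by 1.49 (SE 0.19, limma adjusted p = 0.00041). Tpx2, which activates Aurka at the spindle, differed by 2.39 (SE 0.22, limma adjusted p = 0.000108), and Top2a, the topoisomerase that untangles sister DNA, by 1.95 (SE 0.19, limma adjusted p = 0.000143). Kif23, a motor of the central spindle, stood at 8.66, 9.11 and 8.94 on the hypoxic arrays, at 9.64, 9.82, 9.68, 10.08, 10.19 and 10.38 on days 1 to 6, and at 10.66, 10.79 and 10.64 on the day 7 arrays. Unlike any other member, it was highest on day 7 among the groups by the probe used. Its other 2 kept probes were highest on day 2, as given below. It differed by 1.79 (SE 0.15, limma adjusted p = 7.41e-05) on day 7 and by 0.81 (SE 0.15, limma adjusted p = 0.00287) on days 1 to 3.

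The 3 measured genes of cytokinesis rose on day 7. Prc1, which bundles the microtubules of the central spindle, stood at 10.47, 10.29 and 10.35 on the hypoxic arrays, at 12.76, 12.80, 13.01, 12.51, 12.10 and 12.46 on days 1 to 6, and at 11.61, 11.39 and 11.78 on the day 7 arrays. The day 7 arrays were the lowest normoxic ones and still above all hypoxic arrays. The difference on day 7 was 1.23 (SE 0.14, limma adjusted p = 0.000284). Anln, anillin of the contractile ring, stood at 10.24, 9.96 and 10.20 on the hypoxic arrays, at 11.92, 12.01, 12.40, 11.65, 11.39 and 11.60 on days 1 to 6, and at 10.87, 10.83 and 11.13 on the day 7 arrays. It showed the same order of groups. The difference on day 7 was 0.81 (SE 0.14, limma adjusted p = 0.00218). Ect2, the exchange factor that activates RhoA at the cleavage furrow, was not detected in hypoxic culture and was at least 1.34-fold higher on day 7 and at least 2.68-fold higher on days 1 to 3.

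**Figure D2:**
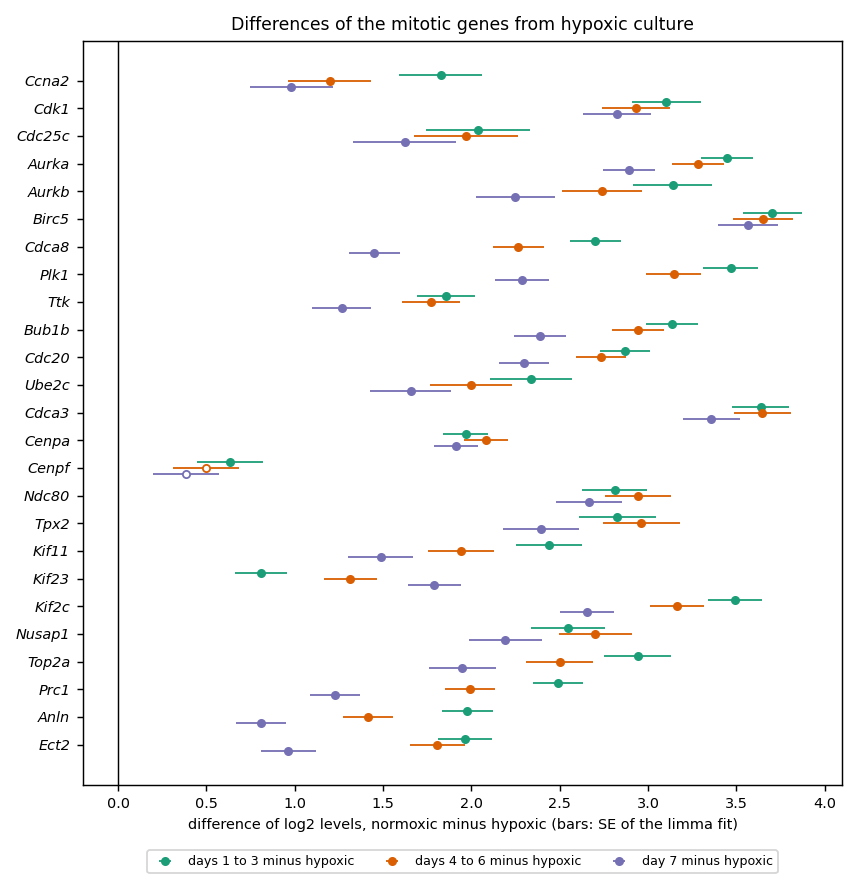
Difference of log2 levels, normoxic minus hypoxic, of the 25 measured mitotic genes for days 1 to 3, days 4 to 6 and day 7 (points, with the SE of the limma fit as bars). Filled points passed the test and open points did not, which are those of Cenpf on days 4 to 6 and day 7. Only Kif23, read here from 1 of its 3 kept probes, has its largest difference on day 7.

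The earlier days were set against hypoxic culture in the same way, with single arrays taken to vary like the triplicates. On days 1 to 3, all 25 genes rose, with a median difference of 2.70 against −0.06 over all genes. The call of Cenpf, which was not detected in hypoxic culture, was lost with the set as a block (limma adjusted p = 0.0514), without background correction (0.0585), and without hypoxic replicate 1 (0.07), hypoxic replicate 2 (0.0789) or day 2 (0.0817). In that comparison 54.9% of all genes passed, 25.6% higher and 29.2% lower. On days 4 to 6, 24 rose and Cenpf did not pass, with a median difference of 2.50 against −0.05 over all genes, and 54.8% of all genes passed, 25.6% higher and 29.2% lower. The median difference was 2.71 for days 1 to 3 within set b, where 25 genes passed, and 2.38 for days 4 to 6 within set a, where 23 passed against the single hypoxic array of that set and Ccna2 (limma adjusted p = 0.122) and Cenpf did not. These comparisons share the hypoxic arrays with that of day 7.

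Day by day, all 25 genes were higher on day 1 than the hypoxic mean, by a median of 2.35, and 24 were higher again on day 2, by a median of 0.43, with Ttk the exception. Day 2 was the highest group for 9 genes, day 3 for 10, day 6 for 5 (Cdk1, Cenpa, Cenpf, Ndc80 and Nusap1) and day 7 for Kif23. The hypoxic group was the lowest for all 25. Day 5 lay below both day 4 and day 6 in 23 of the 25 genes (92.0%), as in 32 of 33 DNA replication genes and 33.1% of all genes. The level on day 5 was lower than the mean of its neighbours by a median difference of −0.46, against 0.0074 over all genes, and these single arrays have no replicates. On day 7, 24 genes were lower than on day 6, with a median difference of −0.66. Among all genes, 45.7% were higher on day 7 than on day 6. Among the day 7 arrays, replicate 2 was lowest for 20 genes and replicate 3 highest for 21.

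Within normoxic culture the differences were smaller. On days 4 to 6 against days 1 to 3, 0 genes rose and only Anln fell, by 0.56 on the log2 scale (limma adjusted p = 0.0401). The median difference was −0.16, and 15.7% of all genes passed, 8.59% higher and 7.15% lower. With every kept probe tested singly, this probe of Anln did not pass (limma adjusted p = 0.0544). A second probe of Top2a fell in that test (−0.67, limma adjusted p = 0.0301). The call of Anln was lost without the array of day 2, 3, 5 or 6 in turn, and the median turned to 0.025 without day 5. These groups lie in different sets, and with the set as a block 0 mitotic genes passed in limma. At an unadjusted p below 0.05, Kif23 was higher and 5 genes were lower without that block, against 0 higher and 1 lower with it. No share of all genes at an unadjusted p is given here, so such counts in this paragraph have no background beside them. On day 7 against days 4 to 6, 5 genes fell and 0 rose, with a median difference of −0.45, and 9.40% of all genes passed, 5.40% higher and 3.99% lower. The 5 were Plk1, which differed by -0.86 (SE 0.15, limma adjusted p = 0.0232), Ect2 by -0.84, Cdca8 by -0.82, Prc1 by -0.76 and Anln by -0.61. These 5 include all 3 measured genes listed here under cytokinesis. This count was 0 without the array of day 4 or day 7 replicate 2, 2 without day 7 replicate 1, 1 with the set as a block and 0 within set a, where the median difference was −0.42. At an unadjusted p below 0.05 in limma, 14 genes were lower on day 7 and Kif23 was higher, against 10 lower without day 4, 8 without day 7 replicate 2 and 6 within set a.

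For 13 of the 25 genes more than 1 probe was kept, 42 probes in all. Tested singly, all probes rose on day 7 for 10 of the 13 genes. The second probes of Cdk1, Ttk and Anln did not pass, with differences of 0.54 (adjusted p = 0.344), 0.30 (adjusted p = 0.437) and −0.18 (adjusted p = 0.543) in limma. The 3 probes of Kif23 all rose but had different courses. The probe that stands for the gene differed by 0.81 on days 1 to 3, 1.31 on days 4 to 6 and 1.79 on day 7. Its other 2 probes differed by 3.85 and 3.85 on days 1 to 3, by 3.44 and 3.08 on days 4 to 6, and by 2.58 and 2.61 on day 7. The rising course of Kif23 within normoxic culture thus belongs to 1 of its 3 probes. On day 7 against days 4 to 6, 1 of the other 2 fell (−0.86, limma adjusted p = 0.036) and the other did not pass (−0.47). In that comparison, Anln (limma adjusted p = 0.06) and the second probe of Cdca8 (−0.58, limma adjusted p = 0.116) did not pass when probes were tested singly.

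**Figure D3:**
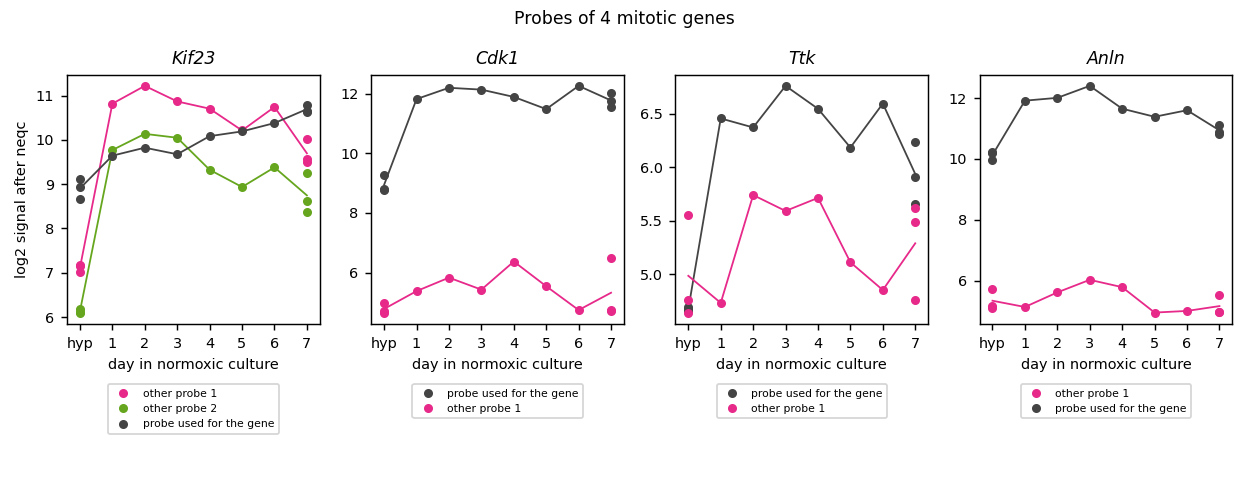
Log2 signal after neqc of each kept probe of Kif23, Cdk1, Ttk and Anln on every array (points), with lines through the group means, from hypoxic culture (hyp) to day 7. In Kif23 the probe used for the gene climbs to day 7 while the other 2 peak on day 2, and the second probes of the other 3 genes stay near the lower end of the scale.

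The promoters of the listed genes, measured or not, were also compared. Of the 34 genes, 29 had an entry in RefSeq's annotation of GRCm38.p6, taken as 250 bases before to 50 after the annotated start, and 2 of them had 2 entries, so 31 promoters were read. For those 2 genes, windows, spacings and plotted positions use the entry at the higher coordinate. Aurkb, Ccna2, Cdc25c, Kif20a and Tpx2 had none. The windows below are the last 100 bases before the start of the 6 genes that hold both a CHR match and a CCAAT match wholly within them, so that the arrangement can be seen. Both matches, on either strand, are in capitals (TTTGAA or TTCAAA for the CHR, CCAAT or ATTGG for the CCAAT box), and each window runs 5′ to 3′ on the gene's strand and ends at the base before the start. They lie on GRCm38.p6, Cdk1 at chr10:69352913-69353012 (minus strand), Cdc20 at chr4:118437344-118437443 (minus strand), Ube2c at chr2:164769829-164769928 (plus strand), Kif11 at chr19:37376282-37376381 (plus strand), Top2a at chr11:99024190-99024289 (minus strand) and Prc1 at chr7:80294376-80294475 (plus strand).
Cdk1: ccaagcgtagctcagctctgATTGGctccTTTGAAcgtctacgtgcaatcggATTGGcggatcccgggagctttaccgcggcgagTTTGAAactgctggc
Cdc20: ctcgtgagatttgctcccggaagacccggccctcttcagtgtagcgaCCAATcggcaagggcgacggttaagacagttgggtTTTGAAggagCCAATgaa
Ube2c: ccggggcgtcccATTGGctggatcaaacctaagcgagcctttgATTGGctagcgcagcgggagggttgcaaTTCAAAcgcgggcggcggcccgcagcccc
Kif11: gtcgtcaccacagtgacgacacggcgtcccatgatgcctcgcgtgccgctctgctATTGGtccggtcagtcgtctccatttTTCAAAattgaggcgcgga
Top2a: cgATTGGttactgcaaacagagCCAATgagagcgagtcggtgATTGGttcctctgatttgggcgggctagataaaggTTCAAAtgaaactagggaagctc
Prc1: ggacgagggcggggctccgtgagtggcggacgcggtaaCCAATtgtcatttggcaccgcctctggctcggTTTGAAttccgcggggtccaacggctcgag

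In these 6 windows a CCAAT match precedes a CHR match, and Cdk1, Cdc20, Ube2c and Top2a hold more than 1 CCAAT match. The windows were chosen for holding both before the start. Of the genes with a CHR match, 15 had a match that began at or after the start, and 8 had matches only before it. The letters TTTGAA were present in 25 of the 31 mitotic promoters (80.6%), against 17.9% of 32851 promoters of all genes and 13.3% of 30 promoters of DNA replication genes. CCAAT was present in 80.6%, against 37.4% of all promoters and 60.0% of DNA replication promoters, and both in 71.0%, against 6.95% and 10.0%. In the 23 promoters of measured mitotic genes alone, TTTGAA was present in 91.3%, CCAAT in 78.3% and both in 78.3%. The CHR variant TTTAAA was present in 29.0% of the 31, against 13.2% of all promoters. The E2F letters TTCCCGC were present in 0 of the 31, against 4.60% of all and 40.0% of DNA replication promoters, and TTGGCGC in 16.1%, against 2.45% and 26.7%. Both strands were searched, and TTGGCGC can overlap a CCAAT match on the other strand. Where a CCAAT match lay before a CHR match (23 CHR matches in 20 genes), their first letters were a median of 33 bases apart, with a range of 9 to 153. Birc5, Bub1, Ccnb1, Cenpe, Nuf2 and Nusap1 held no TTTGAA in this window, but Birc5, Ccnb1 and Cenpe held the variant TTTAAA. Of these genes, Birc5 and Nusap1 were measured, and both rose on day 7. Whether the letters bear on the rise was not tested. A match is a description of letters, not a binding site.

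**Figure D4:**
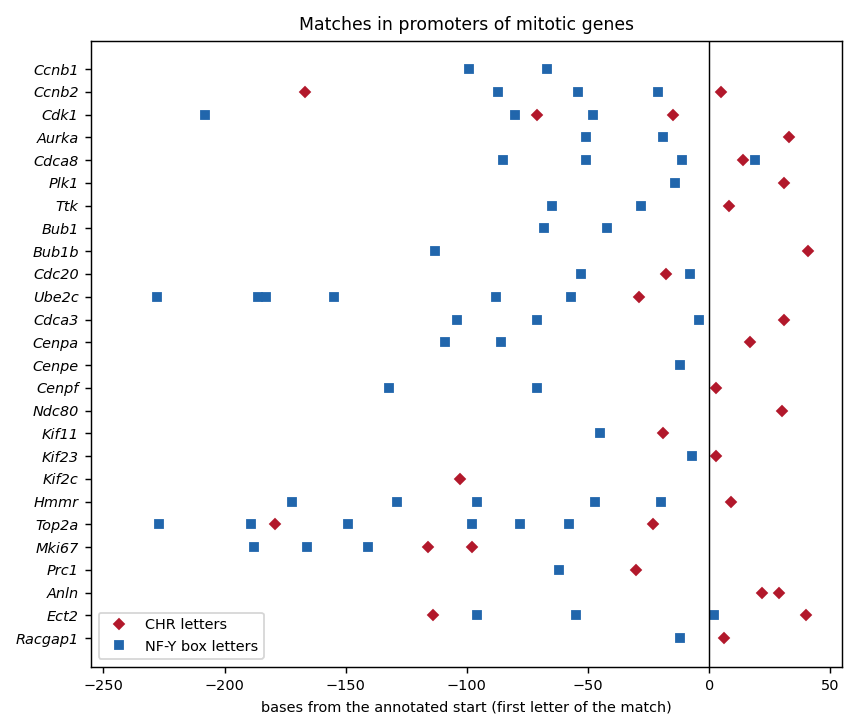
Positions of CHR letters (diamonds) and CCAAT letters, the NF-Y box (squares), in bases from the annotated start, for the mitotic genes whose promoter entry holds either, with 1 entry per gene. CCAAT letters lie mostly before the start, and CHR letters lie around it.

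Other genes of cell division were counted to place the 25 beside their neighbours, from lists of which no member is repeated here. Of 20 other spindle and cytokinesis genes, 18 rose and 0 fell on day 7, with a median difference of 2.03, and the highest was Pimreg at 2.79. Of 22 other centromere and kinetochore genes, 19 rose and 1 fell, with a median of 1.74, from Spc25 (kinetochore, 3.90) to Mis12 (kinetochore, −0.43). Of 17 other kinases, checkpoint and separation genes, 11 rose and 1 fell, with a median of 0.87. Pbk, a mitotic kinase, differed by 3.55, and Wee1, the kinase that holds Cdk1 inactive, fell and was not detected on a day 7 array, which makes it at least 1.18-fold lower on day 7. Within set b, Wee1 did not pass (−0.84, limma adjusted p = 0.0701). Among all genes, 25.9% rose and 33.7% fell in this comparison.

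Of 17 condensin and cohesin genes, 4 rose, 3 fell and 10 did not pass, from Ncaph (condensin, 1.45) to Nipbl (cohesin loader, −1.15). Their median of −0.04 pools both complexes and describes neither alone. The day 7 mean lay above the hypoxic mean for every condensin gene except Ncapd3. It lay below the hypoxic mean for every gene of cohesin and its regulators except Rad21. Of 11 subunits and regulators of the anaphase-promoting complex, 5 rose and 1 fell, with a median of 0.22, from Cdc26 (2.83-fold higher on day 7) to Anapc5 (1.86-fold lower), whose call was lost within set a (limma adjusted p = 0.0816). Of 33 DNA replication genes, 31 rose and 1 fell, with a median of 1.73, from Rrm2 (ribonucleotide reductase, 4.66) to Rfc1 (clamp loader, −0.46). The call of Mis12 was lost without hypoxic replicate 1 or 3 or day 7 replicate 1 or 3 (limma adjusted p up to 0.11), and that of Rfc1 without any 1 hypoxic replicate or without day 7 replicate 1 or 2 (limma adjusted p up to 0.133). With the replicate number as a block, neither passed (limma adjusted p = 0.0787 for Mis12 and 0.0697 for Rfc1), and neither passed within set a or within set b (limma adjusted p 0.113 to 0.488).

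Of 17 genes that code for regulators of cell cycle promoters (DREAM, MuvB, E2F and NF-Y proteins), 7 rose and 1 fell on day 7, with a median of 0.18. Mybl2, the B-Myb activator that joins MuvB, was at 8.20, 7.89 and 8.34 on day 7, against 5.70, 6.15 and 6.03 in hypoxic culture, and differed by 2.18 (SE 0.18, limma adjusted p = 6.6e-05). Foxm1, the forkhead activator of G2 and M genes, was at 7.96, 7.24 and 8.12 on day 7, against 6.02, 5.98 and 5.94 in hypoxic culture, and differed by 1.80 (SE 0.23, limma adjusted p = 0.00046). Both were higher on every day 7 array than on any hypoxic one. The pocket protein Rbl1 (1.32), E2f5 (0.92), the chromatin protein Rbbp4 (0.83), the E2F partner Tfdp1 (0.65) and E2f1 (0.60) also rose, but Tfdp1 (0.35) and E2f1 (0.22) did not pass with arrays shifted to a common median over all probes. The call of E2f1 was also lost without hypoxic replicate 2 (limma adjusted p = 0.0545) or day 7 replicate 1 (limma adjusted p = 0.0502), and that of Rbbp4 with the mean of its probes (0.35, limma adjusted p = 0.0649). Rb1, the retinoblastoma protein that restrains E2F factors, was at 7.60, 7.43 and 7.66 on day 7, against 9.20, 8.74 and 8.58 in hypoxic culture, and differed by −1.27 (SE 0.18, limma adjusted p = 0.000773). Within set a, Foxm1, E2f5, Rbbp4, Tfdp1, E2f1 and Rb1 kept their direction and did not pass (limma adjusted p 0.0544 to 0.28), and Rbbp4 (0.0508) and Tfdp1 (0.0629) did not pass within set b either. The NF-Y genes Nfya, Nfyb and Nfyc did not pass, with differences of −0.17, 0.17 and −0.34.

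**Figure D5:**
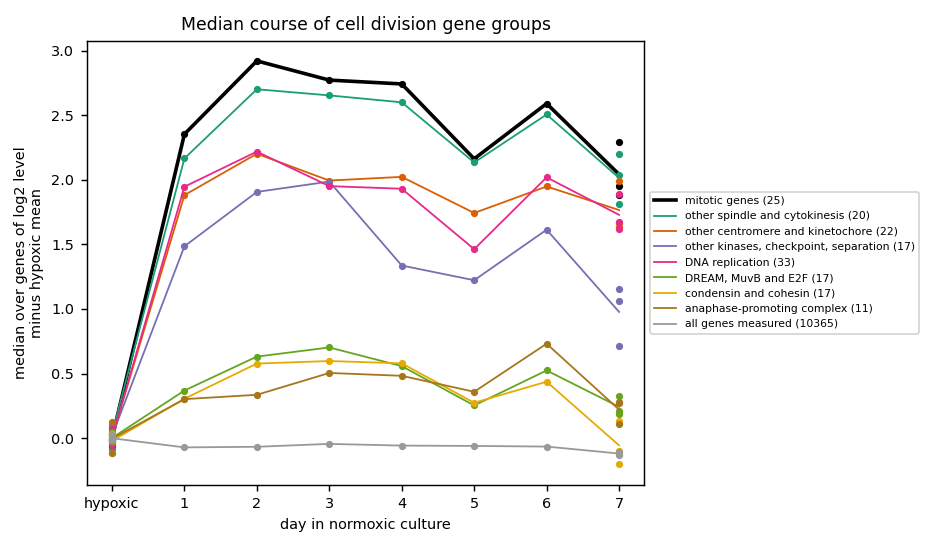
Median over the genes of each list of the log2 level minus the mean of the hypoxic arrays, for every array (points) with lines through the group means; list sizes are in the legend. The mitotic genes and the lists of spindle, kinetochore and DNA replication genes stand well above all genes measured from day 1 on, with a dip on day 5, while on days 1 to 6 condensin and cohesin lie at 0.27 to 0.60 and the anaphase-promoting complex at 0.30 to 0.73, against −0.07 to −0.05 for all genes.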

How the data were processed

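Biotinylated cRNA made from total RNA was hybridized, per the labels' protocols. The sources used here give neither the scanner software nor the bead summary method. In one table, the authors deposited log2 signals that the values show to be neither background-corrected nor normalized, beside detection p-values, which were matched to the arrays by exact ordering because 0 of 12 neighbouring columns fitted. In the authors' processed value table, only detection p-values were used, to define sets a and b, and 6 log2 columns were not used because their sample names conflict. Signals were put through neqc of limma 3.58.1 in R 4.3.3 (offset 16, quantile normalization). A probe was kept if detection p lay below 0.05 on at least 3 of 12 arrays, and the kept probe with the highest mean stood for its gene. Probe names came from the platform annotation, in which 34885 of 45281 probes had 1 gene symbol, 18 several and 10378 none. A limma model of 8 group means used all 12 arrays (4 residual degrees of freedom, from hypoxic and day 7), with eBayes and 2-sided tests adjusted by Benjamini-Hochberg over 10365 genes. Fold changes are ratios on the neqc scale, whose offset understates those of dim genes. The fit was tested on simulated data. Values per array are given for the 2 members of each role group with the highest mean level, and for any member past the threshold against the median member or in no comparison. Of other lists, the highest and lowest gene past the threshold on day 7 are named, and every regulator past it. Cenpf, Kif23, Ncapd3, Rad21 and the NF-Y genes were singled out after their values were seen, as was the split of condensin from cohesin. Members and lists were chosen with earlier results of these data known. Alternatives covered background correction, scaling, filter, probe choice, blocks, sets and each array left out. No pairing by replicate number was visible: deviations of same-numbered arrays correlated at 0.03, −0.0037 and 0.06. With so few arrays per group, these values cannot show that the samples were unpaired.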

Additional observations from a re-analysis of the deposited data

How the results depend on the processing

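The mitotic genes past the threshold against hypoxic culture numbered 18 to 25 for day 7 (18 of 18 measured under the stricter filter, 24 with the replicate block), 18 to 25 for days 1 to 3 and 18 to 25 for days 4 to 6 under every alternative tried. Their median difference moved by more than the spread between replicates in these cases. Without background correction it was 1.67 for day 7, 2.24 for days 1 to 3 and 2.08 for days 4 to 6. Without the filter it was 1.64, 2.39 and 1.99 in that order, over 32 genes. Under the stricter filter, with 18 genes, it was 2.29 for day 7 and 2.83 for days 4 to 6, with the mean of probes 2.49 for days 1 to 3 and 2.14 for days 4 to 6, and with a common median over detected probes 2.27 for day 7. Within set a, 2626 of all genes passed for day 7 (6184 in the main fit) and 1967 for days 4 to 6 (5683), from fewer arrays. The share of passing genes that were higher was 43.5% for day 7 against hypoxic, 31.8% with a common median over all probes and 52.4% over detected probes, where the median of all genes was −0.11, −0.31 and 0.09; for day 7 against days 4 to 6 the shares were 57.5%, 15.8% and 76.8%. The cause of these shifts was not tested.

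For days 4 to 6 against days 1 to 3, the mitotic genes past the threshold (1) became 5 without background correction, 4 under the stricter filter, and 0 with a common median over all probes, no filter, the mean of probes, the set as a block, or without day 2, 3, 5 or 6. The median became −0.38 without day 1 and 0.025 without day 5. All genes past it (1631) became 117 with the set as a block, 1031 without day 1, 1071 without day 5 and 902 without day 6. For day 7 against days 4 to 6, the mitotic genes (5) became 13 without background correction, 16 with a common median over all probes (median −0.67), 9 under the stricter filter, 1 with the set as a block, and 0 within set a or without day 4, and lay between 0 and 7 without a day 7 replicate. All genes (974) became 1957, 2439, 1752, 431, 0 and 166 in that order, 631 with no filter and 487 without day 5, and lay between 163 and 864 without a day 7 replicate; within set a the fit has 1 residual degree of freedom. Single genes changed sign where they had not passed: Cenpf to −0.010 for day 7 against hypoxic within set a, to 0.080 for days 4 to 6 against days 1 to 3 without day 5, and for day 7 against days 4 to 6 to 0.14 with a common median over detected probes, 0.18 without day 6 and from −0.27 to 0.0044 without a day 7 replicate; Kif23, with the mean of its probes, to −0.23 and −0.28 in those 2 comparisons. Against hypoxic culture, Cenpf on days 1 to 3 lost its call under 5 alternatives (adjusted p 0.0514 to 0.0817), and Anln on day 7 with the mean of probes (0.32, adjusted p = 0.0623). Counting each named gene under each alternative, direction and side of the threshold held in 646 of 690 cases for day 7 against hypoxic, 338 of 343 for days 1 to 3, 339 of 343 for days 4 to 6, 26 of 38 for days 4 to 6 against days 1 to 3, and 62 of 96 for day 7 against days 4 to 6.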
